A study of Mus musculus with 6 samples.

Results

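The genes described here are 9 direct targets of the transcription factor p53 that act in growth arrest and stress responses, *Cdkn1a*, *Btg2*, *Ccng1*, *Mdm2*, *Sesn1*, *Sesn2*, *Trp53inp1*, *Phlda3* and *Zmat3*. They were chosen by symbol, from what is known of p53 but with earlier results of these data known, and all 9 were found among the 39179 mouse genes of the count files. Bone marrow RNA of 6 littermates was sequenced. The 3 *MxCDX2* mice (genotype *RsCDX2::Mx1Cre*) carried the human *CDX2* coding sequence at the *Rosa26* locus, behind a stop sequence that Cre removes, together with a Cre transgene under the interferon-inducible *Mx1* promoter, which is active in blood cells and in other tissues. The 3 control mice were 1 *RsCDX2* mouse without Cre (control 1), 1 *Mx1Cre* mouse without the knockin (control 2) and 1 wild-type mouse (control 3), so differences between control genotypes and between control mice cannot be told apart. All 6 mice were 3 months old, were given poly(I:C), an inducer of the interferon response, in 3 injections into the peritoneum at 10 µg per g of body weight, and were analysed 6 weeks later.

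p53 is a transcription factor that is kept low in unstressed cells, mainly by the ubiquitin ligase MDM2, and accumulates after DNA damage, oncogene activity or nutrient stress. It binds pairs of short half-sites near its target genes, whose products halt the cell cycle, restrain growth signals, trigger apoptosis or, as with MDM2 itself, limit p53 in turn. In bone marrow, p53 is known for restricting blood stem and progenitor cells after damage, and several of its targets are also controlled by other factors, such as ATF4 for *Sesn2* and growth-factor signals for *Btg2* and *Cdkn1a*.

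In the marrow of *MxCDX2* mice the 9 genes did not move together. *Ccng1* rose, whereas *Btg2*, *Sesn1*, *Sesn2* and *Trp53inp1* fell. *Cdkn1a*, the target most often read for p53 activity, had a mean 2.52 times that of the control mice, with no overlap between the groups, but its control mice differed widely and it did not pass the test. *Mdm2*, the feedback target, had nearly the same mean in both groups, and neither *Zmat3* nor *Phlda3* passed.

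The sequences before the transcription start were read from RefSeq (GRCm38.p6), which gave 9 windows for 7 of the 9 genes and none for *Zmat3* and *Trp53inp1*. Each window holds 250 bases before the start and 50 after it, and the 250 bases before the start are shown 5′ to 3′ on the strand of the gene for 5 windows. They are shown because these windows hold every match to a p53 half-site among the 7 genes, beside *Btg2*, which had the largest fall and no match. Capitals mark matches to the p53 half-site consensus and, in *Cdkn1a*, a run with a pair of CATG cores, and positions count back from -1, the last base before the start.
*Cdkn1a*, chr17:29090729-29090978, plus strand: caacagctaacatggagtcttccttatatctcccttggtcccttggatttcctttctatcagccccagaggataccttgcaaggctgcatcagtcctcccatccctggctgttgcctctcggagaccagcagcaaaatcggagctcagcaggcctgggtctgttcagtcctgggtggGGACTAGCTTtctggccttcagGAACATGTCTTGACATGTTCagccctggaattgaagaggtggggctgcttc
*Mdm2*, chr10:117710759-117711008, minus strand: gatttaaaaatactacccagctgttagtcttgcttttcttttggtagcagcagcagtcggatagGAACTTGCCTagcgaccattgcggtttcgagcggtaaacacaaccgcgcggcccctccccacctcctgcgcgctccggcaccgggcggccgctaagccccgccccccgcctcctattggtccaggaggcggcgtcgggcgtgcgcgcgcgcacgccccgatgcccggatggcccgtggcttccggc
*Ccng1*, chr11:40755287-40755536, minus strand: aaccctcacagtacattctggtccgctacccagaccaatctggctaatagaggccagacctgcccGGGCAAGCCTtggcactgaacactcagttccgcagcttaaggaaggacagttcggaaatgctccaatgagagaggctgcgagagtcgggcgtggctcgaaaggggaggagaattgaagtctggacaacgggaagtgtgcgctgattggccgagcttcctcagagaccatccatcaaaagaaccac
*Sesn1*, from the start inside the gene, chr10:41887189-41887438, plus strand: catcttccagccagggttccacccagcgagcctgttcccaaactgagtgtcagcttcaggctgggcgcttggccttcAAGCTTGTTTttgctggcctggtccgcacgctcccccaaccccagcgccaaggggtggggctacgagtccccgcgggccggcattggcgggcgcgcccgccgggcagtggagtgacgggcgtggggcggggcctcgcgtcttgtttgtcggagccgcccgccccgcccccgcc
*Btg2*, chr1:134079156-134079405, minus strand: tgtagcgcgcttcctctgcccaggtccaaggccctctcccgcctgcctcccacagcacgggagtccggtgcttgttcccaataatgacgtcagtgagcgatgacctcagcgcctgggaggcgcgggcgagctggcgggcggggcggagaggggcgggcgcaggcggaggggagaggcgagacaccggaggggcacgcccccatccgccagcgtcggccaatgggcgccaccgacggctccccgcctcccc

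*Cdkn1a* had 2 windows, and the one not shown, before a start inside the gene (chr17:29093519-29093768), held neither a half-site match nor a pair of CATG cores. In the *Cdkn1a* window shown, the run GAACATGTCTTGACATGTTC spans positions -51 to -32. It holds CATG in a pair with 6 bases between, written CATGNNNNNNCATG, a pattern that is its own reverse complement and so was read on both strands at once. The pattern was present in 1 window of the 9, against 0.712% of the 32851 RefSeq windows of this length. The half-site consensus, also its own reverse complement, was found in 4 of the 9 windows, in *Cdkn1a* (GGACTAGCTT at -73, and within the run above), *Mdm2* (GAACTTGCCT at -186), *Ccng1* (GGGCAAGCCT at -185) and *Sesn1* (AAGCTTGTTT at -173), against 8.36% of all windows. The patterns were chosen knowing that *Cdkn1a* carries such a site, and a match describes letters and not binding. Of these 4 genes, *Ccng1* rose, *Sesn1* fell, and *Cdkn1a* and *Mdm2* did not pass the test.

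Each library had between 38646101 and 49899650 reads counted on genes, and the smallest count of any of the 9 genes in any mouse was 111. Reads on *Cdx2*, the mouse gene, to which reads of the human sequence could align, numbered 4, 0 and 0 in control mice 1, 2 and 3, against 152, 155 and 183 in *MxCDX2* mice 1, 2 and 3, which matches the labels. Values below are normalized counts, which are counts scaled to the mean library size after edgeR's TMM normalization, so they compare mice and not genes. A gene rose or fell where edgeR's quasi-likelihood test gave an adjusted p below 0.05 over the 15980 genes tested, and the thresholds of the study add an absolute log2 fold change above 1. With 3 mice in each group, 0.10 is the smallest two-sided p of an exact permutation test, and every gene of the 9 whose groups did not overlap had that value.

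The makeup of the marrow RNA differed between the groups, in the plot of cell type markers by mouse. All 78 marker genes had counts in every mouse, and among them the erythroid and neutrophil genes that mark marrow were abundant. The 12 erythroid genes all fell, and their summed level was 41292 to 49040 CPM (counts scaled to a common library size) in control mice and 1172 to 4637 CPM in *MxCDX2* mice, with *Hbb-bs* and *Hba-a1*, the most abundant, at log2 fold changes of -4.19 and -4.24. Of 8 monocyte genes 7 rose, with sums of 1349 to 1630 CPM in control mice and 6738 to 8250 CPM in *MxCDX2* mice, and log2 fold changes of 3.06 and 2.06 for *F13a1* and *Ly6c2*. Of 9 neutrophil genes 7 fell, with sums of 43644 to 68025 CPM against 17933 to 24754 CPM, and -1.56 and -1.53 for *S100a9* and *S100a8*. Among the other lists, 4 of 9 B cell genes fell (425 to 1156 CPM in control mice and 97.2 to 321 CPM in *MxCDX2* mice), and 3 of 7 megakaryocyte genes fell (591 to 6649 CPM and 260 to 347 CPM). For promyelocytes 2 of 5 genes rose (729 to 3925 CPM and 4359 to 4631 CPM), and of 7 T cell genes 1 rose and 1 fell (66.6 to 169 CPM and 151 to 223 CPM), where *Cd28* alone had a positive log2 fold change (4.23) and the other 6 had negative ones. A fall was called for 1 of 7 eosinophil and basophil genes (912 to 3912 CPM and 307 to 2920 CPM), 1 of 6 stem and progenitor genes (149 to 287 CPM and 166 to 186 CPM) and 2 of 8 stroma and endothelium genes (390 to 1336 CPM and 237 to 425 CPM). The wild-type mouse stood apart from the other control mice, with the highest megakaryocyte sum (6649 CPM, against 591 and 800 CPM) and the lowest promyelocyte sum (729 CPM, against 3107 and 3925 CPM). In bulk marrow, fewer cells of a type and less RNA per cell cannot be told apart, and the part of these shifts in the values of the 9 genes was not tested.

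**Figure D1:**
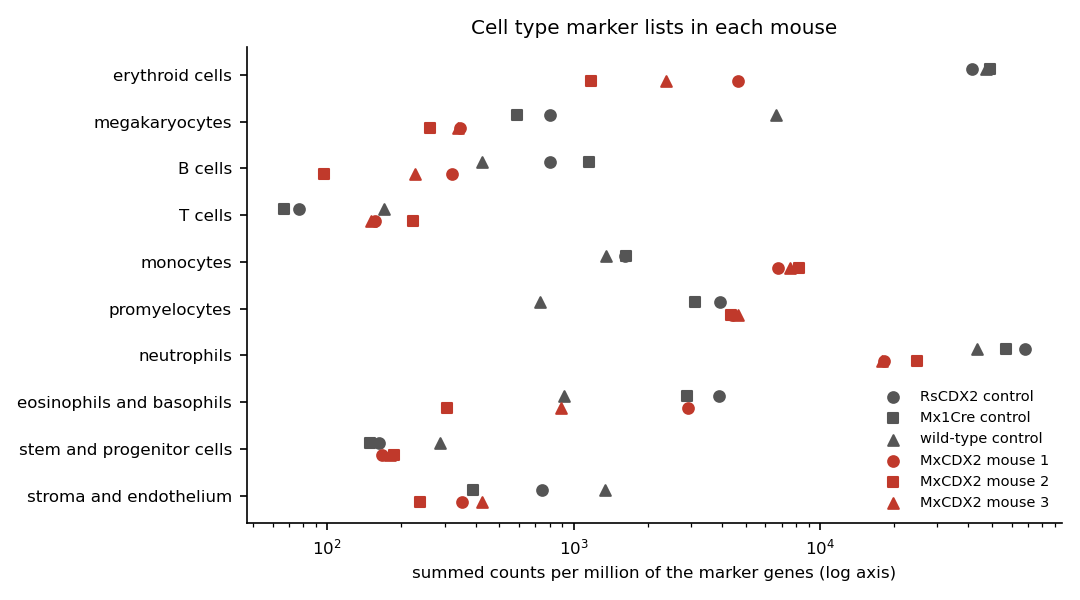
Summed CPM of the genes of each cell type marker list (horizontal log axis) in each of the 6 mice, grey for control and red for *MxCDX2* mice. The erythroid and neutrophil sums of every *MxCDX2* mouse lie below those of every control mouse, the monocyte sums lie above, and the wild-type control has a megakaryocyte sum of 6649 CPM.

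Of the 9 genes, 5 (55.6%) were called, against 21.7% of all genes tested, 1 of them higher and 4 lower, against 9.91% and 11.8% of all genes. The groups did not overlap in 6 of the 9 (66.7%), against 42.1% of all genes. With the thresholds of the study applied to edgeR, 1 of the 9, *Btg2*, passed, against 13.6% of all genes. DESeq2 is the tool of the study, run here in a later version. With it *Cdkn1a* passed these thresholds beside *Btg2*, at a log2 fold change of 1.33 (DESeq2 adjusted p = 0.0178), as did 2903 genes in all. In the edgeR fit, the median log2 fold change of the 9 genes was -0.20, and that of all genes tested was 0.00. Without the wild-type control, 2 rose and 4 fell, *Cdkn1a* joining *Ccng1*, in a fit that called 4361 of 16179 genes. Without *MxCDX2* mouse 3, 1 fell and no rise was called with edgeR, in a fit that called 1482 of 16302 genes. In this last fit, 1 rise and 4 falls among the 9 genes had an unadjusted p below 0.05.

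**Figure D2:**
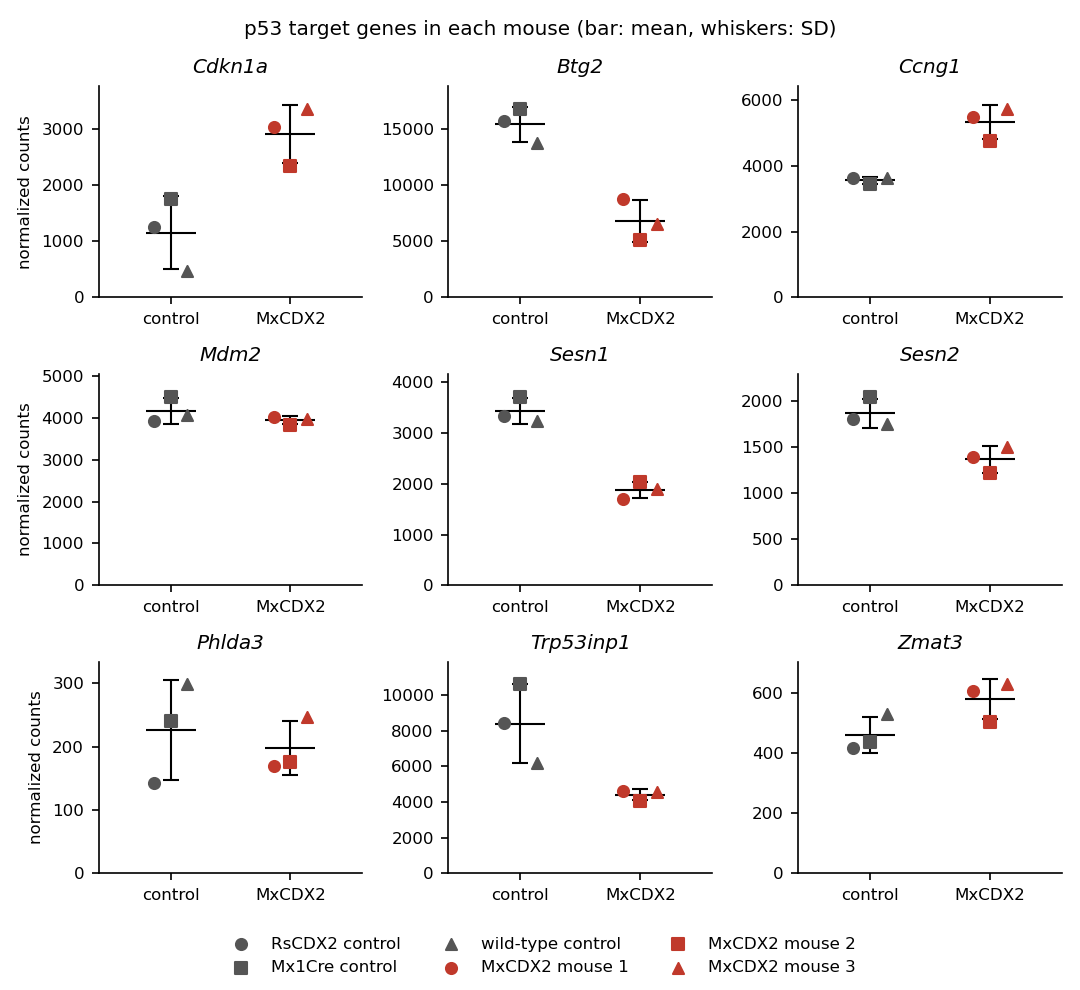
Normalized counts (vertical axes from 0) of the 9 genes in each mouse, grey for control and red for *MxCDX2* mice, with a bar at the group mean and whiskers of 1 SD (n = 3). The groups lie apart for *Cdkn1a*, *Btg2*, *Ccng1*, *Sesn1*, *Sesn2* and *Trp53inp1*, and overlap for *Mdm2*, *Phlda3* and *Zmat3*.

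*Cdkn1a* encodes p21, an inhibitor of cyclin-dependent kinases that carries much of the arrest set by p53. It is a protein-coding gene at chr17:29090976-29100727 on the plus strand (GRCm38, as for the positions below), with 1 annotated gene on the opposite strand that overlaps it. Normalized counts were 1255, 1745 and 463 for control mice 1, 2 and 3 and 3033, 2337 and 3365 for *MxCDX2* mice 1, 2 and 3. All *MxCDX2* mice were above all control mice, and the wild-type control was far below the other control mice, the highest control being 3.77 times the lowest. The group means were 1154 ± 647 (SD, n = 3) and 2912 ± 524 (SD, n = 3), which made a log2 fold change of 1.34 with a standard error (SE) of 0.45 and a 95% interval of 0.27 to 2.40 (edgeR, adjusted p = 0.0771). The log2 fold change was smaller without the wild-type mouse, 0.97, yet the test was passed (adjusted p = 0.0238), and in each of the other 5 fits with 1 mouse left out it was not. DESeq2 also called the gene, at 1.33 (adjusted p = 0.0178), while limma voom did not (adjusted p = 0.0507).

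Its relatives in the CIP/KIP family of kinase inhibitors gave different values. *Cdkn1c*, which encodes p57, rose in normalized counts from 93.5 ± 30.7 (SD, n = 3) to 396 ± 204 (SD, n = 3), giving a log2 fold change of 2.08 (SE 0.51, adjusted p = 0.0301). It kept its call in 2 of the 6 fits with 1 mouse left out. *MxCDX2* mouse 2 had 161 normalized counts and the other *MxCDX2* mice 505 and 521, against 63.6 to 125 in control mice. *Cdkn1b*, which encodes p27, had a log2 fold change of -0.51 (adjusted p = 0.105), with overlapping groups.

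*Btg2* encodes an antiproliferative protein that binds the CCR4-NOT complex, which removes the poly(A) tails of mRNAs. It lies at chr1:134075170-134079120 on the minus strand. The values were 15702, 16765 and 13702 normalized counts for control mice 1, 2 and 3, against 8763, 5095 and 6558 for *MxCDX2* mice 1, 2 and 3. All *MxCDX2* mice lay well below the lowest control, and mouse 2 was the lowest of them. From 15390 ± 1556 (SD, n = 3) to 6805 ± 1846 (SD, n = 3), the log2 fold change was -1.18 (SE 0.21, 95% interval -1.67 to -0.68, edgeR adjusted p = 0.0106). It passed in 5 of the 6 fits with 1 mouse left out, and without *MxCDX2* mouse 3 it was -1.15 (adjusted p = 0.0550).

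In the BTG/TOB family, *Tob1* also fell, by 1.09 on the log2 scale (SE 0.24, adjusted p = 0.0215), its normalized counts going from 1676 ± 447 (SD, n = 3) to 788 ± 138 (SD, n = 3), a call kept in 2 of 6 such fits. *Btg1*, *Btg3* and *Tob2* had log2 fold changes of -0.60, -0.57 and 0.45 and did not pass. *Tob2* was higher in every *MxCDX2* mouse, by a narrow margin, with 3320 normalized counts in *MxCDX2* mouse 2 and 3319 in control mouse 2.

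*Ccng1* encodes cyclin G1, which recruits the phosphatase PP2A to MDM2, and lies at chr11:40748552-40755311 on the minus strand. Control mice 1, 2 and 3 had 3625, 3442 and 3638 normalized counts, against 5507, 4754 and 5751 in *MxCDX2* mice 1, 2 and 3. The control mice were close together, and every *MxCDX2* mouse was above them. The rise from 3568 ± 110 (SD, n = 3) to 5338 ± 520 (SD, n = 3) was a log2 fold change of 0.58 (SE 0.10, 95% interval 0.33 to 0.83, edgeR adjusted p = 0.0109). Without *MxCDX2* mouse 3 it was 0.53 and no longer passed (adjusted p = 0.0589). *Ccng2*, its relative, had a log2 fold change of -0.07 (SE 0.19, adjusted p = 0.840).

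*Mdm2* encodes the ligase that marks p53 for degradation and lies at chr10:117688875-117710758 on the minus strand. Its normalized counts were 3918, 4510 and 4069 in control mice 1, 2 and 3, against 4014, 3836 and 3978 in *MxCDX2* mice 1, 2 and 3. The ranges overlapped, and the 6 values lay within a narrow band. The group means were 4166 ± 308 (SD, n = 3) and 3943 ± 93.9 (SD, n = 3), giving a log2 fold change of -0.08 (SE 0.09, adjusted p = 0.593), whose 95% interval of -0.30 to 0.14 lies well inside a 2-fold change in either direction. The sign turned to 0.04 when libraries were scaled by total counts only, a setting that moved the median of all genes to 0.12. *Mdm4*, the partner of MDM2 in holding p53 down, had a log2 fold change of 0.10 (SE 0.23, adjusted p = 0.796).

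The sestrins restrain the growth kinase mTORC1 when nutrients are short or cells are stressed, and both sestrins of the list fell. *Sesn1* lies at chr10:41809935-41908424 on the plus strand. It had 3348, 3723 and 3244 normalized counts in control mice 1, 2 and 3, against 1706, 2039 and 1892 in *MxCDX2* mice 1, 2 and 3. The groups were far apart beside the small spread within each. The means of 3438 ± 252 (SD, n = 3) and 1879 ± 167 (SD, n = 3) gave a log2 fold change of -0.87 (SE 0.11, 95% interval -1.14 to -0.60, edgeR adjusted p = 0.00389). *Sesn1* was the one gene of the 9 called in all 6 fits with 1 mouse left out.

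*Sesn2*, which also serves as a leucine sensor, lies at chr4:132492032-132510501 on the minus strand. Control mice 1, 2 and 3 had 1804, 2046 and 1745 normalized counts, against 1386, 1212 and 1496 in *MxCDX2* mice 1, 2 and 3. The groups did not overlap but lay closer together than for *Sesn1*. The fall from 1865 ± 159 (SD, n = 3) to 1365 ± 143 (SD, n = 3) was a log2 fold change of -0.45 (SE 0.13, 95% interval -0.76 to -0.14) and sat at the edge of the threshold (edgeR adjusted p = 0.0497). It was lost in 5 of the 6 fits with 1 mouse left out, all but that without the wild-type control, with adjusted p-values up to 0.140. *Sesn3*, the third sestrin, had a log2 fold change of -0.66 (SE 0.34, adjusted p = 0.209), with 186 to 406 normalized counts in *MxCDX2* mice and 353 to 565 in control mice.

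*Trp53inp1* encodes a stress protein that acts with p53 in the nucleus and in autophagy. It lies at chr4:11156431-11174379 on the plus strand. Its normalized counts were 8412, 10600 and 6204 in control mice 1, 2 and 3, against 4593, 4072 and 4558 in *MxCDX2* mice 1, 2 and 3. The control mice were spread, with the wild type lowest, whereas the *MxCDX2* mice were close together below them. From 8405 ± 2198 (SD, n = 3) to 4408 ± 292 (SD, n = 3), the log2 fold change was -0.93 (SE 0.20, 95% interval -1.40 to -0.47, edgeR adjusted p = 0.0184). The call was lost without control mouse 1 (adjusted p = 0.0519) and without *MxCDX2* mouse 1, 2 or 3 (0.0524, 0.0721 and 0.0723). *Trp53inp2*, a relative that acts in autophagy and in the loss of organelles from maturing red cells, fell further, at a log2 fold change of -2.31 (SE 0.29, adjusted p = 0.00345), its normalized counts going from 11363 ± 3707 (SD, n = 3) to 2297 ± 503 (SD, n = 3), and this call was kept in all 6 such fits. The summed erythroid markers were 16.8 times as high in control as in *MxCDX2* mice, and their part in these falls was not tested.

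Neither of the other 2 genes passed the test. *Zmat3* encodes an RNA-binding zinc finger protein and lies at chr3:32334792-32366014 on the minus strand. Control mice 1, 2 and 3 had 415, 435 and 528 normalized counts, against 607, 502 and 628 in *MxCDX2* mice 1, 2 and 3. The groups overlapped through the wild-type control, which was above *MxCDX2* mouse 2. The group means were 459 ± 60.1 (SD, n = 3) and 579 ± 67.6 (SD, n = 3), giving a log2 fold change of 0.33 (SE 0.18, 95% interval -0.10 to 0.77, adjusted p = 0.239, two-sided exact permutation p = 0.20). *Zmat1*, *Zmat2* and *Zmat5* had log2 fold changes of -0.22, -0.22 and 0.37 and did not pass.

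*Phlda3* encodes a protein that competes with the kinase AKT for membrane lipids and so restrains it. It lies at chr1:135766119-135769136 on the plus strand. It had 142, 240 and 298 normalized counts in control mice 1, 2 and 3, against 169, 176 and 247 in *MxCDX2* mice 1, 2 and 3. The *MxCDX2* values lay inside the range of the control mice. The group means were 227 ± 79.0 (SD, n = 3) and 198 ± 43.0 (SD, n = 3), giving a log2 fold change of -0.20 (SE 0.33, adjusted p = 0.712), and the 95% interval of -0.99 to 0.59 is wide. Without the wild-type mouse, the control with the highest value, the sign turned to 0.06. *Phlda1*, its relative, was lower in every *MxCDX2* mouse, at a log2 fold change of -1.03 (SE 0.31, adjusted p = 0.0570).

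**Figure D3:**
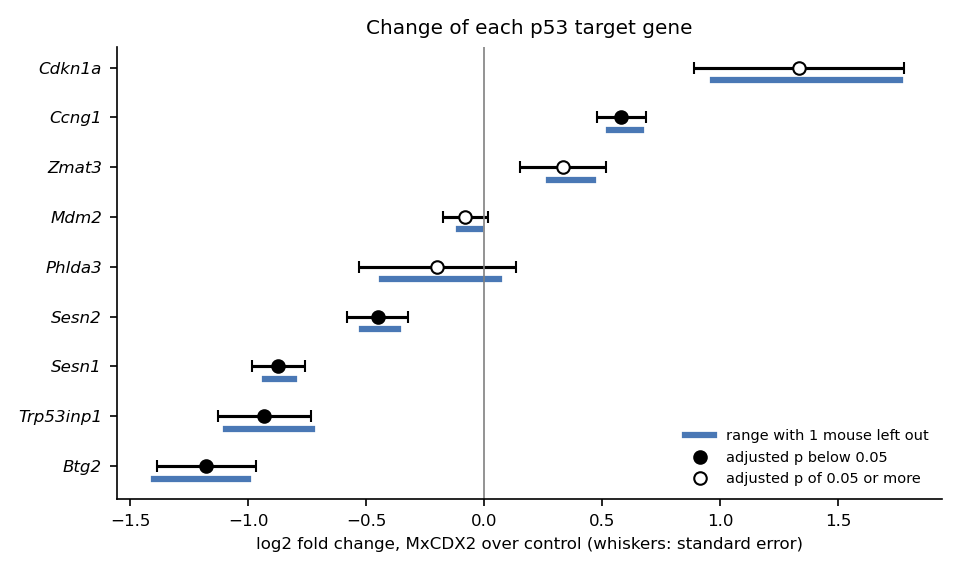
Log2 fold change of each of the 9 genes, *MxCDX2* over control mice (horizontal axis), with whiskers of 1 standard error, filled where the adjusted p was below 0.05 and open elsewhere, and blue bars for the range over the 6 fits with 1 mouse left out. *Cdkn1a* has the highest value, 1.34, and the widest whiskers, *Btg2* has the lowest, -1.18, and the blue bar of *Phlda3* crosses 0.

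Per length of annotated exons the 9 genes spanned a wide range of levels, given here as RPKM, reads per kilobase of exon scaled to library size. In control mice *Btg2* was highest, at 123 ± 12.5 RPKM (SD, n = 3), followed by *Trp53inp1* (28.5 ± 7.47), *Ccng1* (22.3 ± 0.69), *Sesn1* (19.0 ± 1.39), *Mdm2* (18.0 ± 1.33), *Sesn2* (11.8 ± 1.01), *Cdkn1a* (7.14 ± 4.00), *Phlda3* (3.20 ± 1.11) and *Zmat3* (0.88 ± 0.12), all in RPKM. Neighbours in this order whose ranges overlapped were *Trp53inp1* and *Ccng1*, *Sesn1* and *Mdm2*, and *Cdkn1a* and *Phlda3*. In *MxCDX2* mice *Btg2* was still highest, at 54.6 ± 14.8 RPKM (SD, n = 3), but *Ccng1* (33.4 ± 3.25) and *Cdkn1a* (18.0 ± 3.24) came next, ahead of *Mdm2* (17.1 ± 0.41), *Trp53inp1* (15.0 ± 0.99), *Sesn1* (10.4 ± 0.92), *Sesn2* (8.64 ± 0.91), *Phlda3* (2.79 ± 0.61) and *Zmat3* (1.11 ± 0.13). Here the overlapping neighbours were *Cdkn1a* and *Mdm2*, and *Sesn1* and *Sesn2*. By its mean, *Cdkn1a* was the seventh of the list in control mice and the third in *MxCDX2* mice.

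Over the 14 relatives that were tested, 1 rose, 2 fell and 11 did not pass (21.4% called, against 21.7% of all genes), with a median log2 fold change of -0.37.

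**Figure D4:**
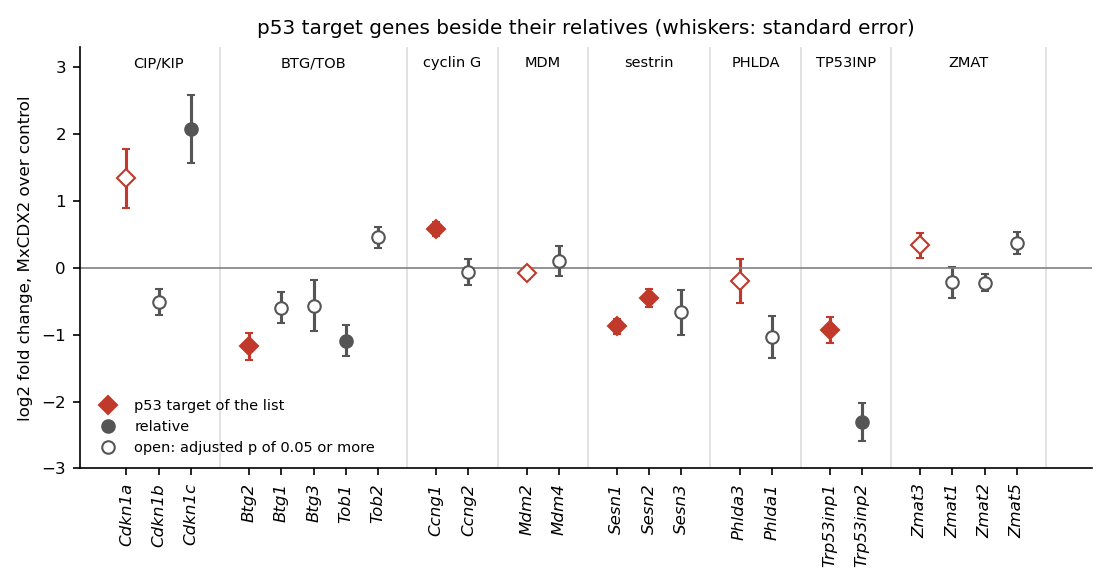
Log2 fold changes, *MxCDX2* over control mice (vertical axis), of the 9 p53 target genes (red diamonds) and their tested relatives (grey circles), grouped by family, with whiskers of 1 standard error and open symbols for an adjusted p of 0.05 or more. *Cdkn1c* at 2.08 and *Trp53inp2* at -2.31 lie farther from 0 than *Cdkn1a* and *Trp53inp1*.

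*Trp53*, which encodes p53, had nearly the same level in both groups. Its normalized counts were 5249, 5522 and 5355 among control mice, against 5637, 5700 and 5992 among *MxCDX2* mice. The *MxCDX2* mice were all slightly higher, at a log2 fold change of 0.10 (SE 0.08, adjusted p = 0.427). *Cdkn2a*, whose locus encodes the p53 activator ARF and the kinase inhibitor p16, which gene counts do not separate, had 7.67, 6.95 and 21.0 normalized counts in control mice, against 20.1, 21.6 and 33.9 in *MxCDX2* mice. These few reads gave a log2 fold change of 1.06 (SE 0.52, adjusted p = 0.197), and the groups overlapped through the wild-type control. *Cdkn2a* passed in 1 of the 6 fits with 1 mouse left out, where its log2 fold change ranged from 0.79 to 1.79. Of 23 tested genes that encode p53 or its regulators, 1 rose, 1 fell and 21 did not pass (8.70% called, against 21.7% of all genes, as for the shares below), with a median log2 fold change of 0.02. *Rpl5*, a ribosomal protein that can bind MDM2, rose by 0.48 on the log2 scale (adjusted p = 0.0438), and *Usp7*, which removes ubiquitin from MDM2 and p53, fell by 0.70 (adjusted p = 0.0161). The rise of *Rpl5* passed in 1 and the fall of *Usp7* in 3 of the 6 fits with 1 mouse left out.

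Of 14 p53 targets that act in apoptosis, 4 rose, 2 fell and 8 did not pass (42.9% called), and the median log2 fold change was 0.06. *Bid*, which links death receptors to the mitochondria, rose in normalized counts from 3266 ± 160 (SD, n = 3) to 6322 ± 274 (SD, n = 3), giving a log2 fold change of 0.95 (SE 0.09, adjusted p = 0.00191), a call kept in all 6 fits with 1 mouse left out. *Bax*, the pore-forming effector, rose by 0.62 (adjusted p = 0.0167), with 2016, 2145 and 2497 normalized counts in control mice, against 3239, 3204 and 3808 in *MxCDX2* mice, and *Pmaip1*, which encodes NOXA, rose by 0.70 (adjusted p = 0.0355). *Ei24*, a membrane protein of the endoplasmic reticulum, rose by 0.44, with an adjusted p of 0.0498. *Bax*, *Pmaip1* and *Ei24* passed in 4, 1 and 1 of the 6 fits. *Bbc3*, which encodes PUMA, had a log2 fold change of 0.40 (SE 0.35, adjusted p = 0.468), with the wild-type control at 557 normalized counts and the other control mice at 234 and 299. The falls were those of *Steap3*, the endosomal iron reductase of red cell precursors, by 1.94 (adjusted p = 0.00287), and *Trp53i11*, by 1.48 (adjusted p = 0.0297). With 1 mouse left out, *Steap3* passed in all 6 fits and *Trp53i11* in 3. Beside *Steap3*, all 12 erythroid marker genes fell, and their part in its value was not tested.

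The list of other p53 targets, which act in repair, metabolism and signalling, had 27 tested genes, of which 3 rose, 5 fell and 19 did not pass (29.6% called), with a median log2 fold change of -0.05. *Dglucy*, a D-glutamate cyclase, and *Tigar*, which lowers glycolytic flux, rose by 1.05 and 1.03 on the log2 scale (adjusted p = 0.00638 and 0.0363), and *Fdxr*, the reductase that feeds electrons to mitochondrial ferredoxin, by 0.47 (adjusted p = 0.0499). *Gadd45a*, a growth arrest and DNA damage gene, fell from 2511, 2348 and 2132 normalized counts in control mice to 843, 586 and 590 in *MxCDX2* mice. Its groups were far apart, and the log2 fold change of -1.79 (SE 0.18, adjusted p = 0.00212) was past the thresholds of the study in every fit with 1 mouse left out. *Gls2*, a glutaminase, fell by 2.28 to 21.0 ± 1.70 normalized counts (SD, n = 3, adjusted p = 0.00477). *Ptpn14*, a phosphatase, and *Ephx1*, an epoxide hydrolase, fell too, at log2 fold changes of -1.78 and -1.63 (adjusted p = 0.0234 and 0.0148). *Abhd4* fell by 0.50 (adjusted p = 0.0417). *Dglucy*, *Gls2* and *Ephx1* passed in all 6 fits with 1 mouse left out, *Ptpn14* in 4 and *Tigar* in 2, while *Fdxr* and *Abhd4* passed in none of the 6.

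p53 and p21 act on proliferation through the DREAM complex, which holds cell cycle genes down when p21 blocks the kinases. Of 22 such genes 9 fell (40.9%, against 11.8% of all genes) and 13 did not pass, with a median log2 fold change of -0.50. *Ccne1*, which encodes cyclin E1, fell by 1.55 (adjusted p = 0.00695), *Mki67*, which encodes the proliferation antigen Ki-67, by 0.92 (adjusted p = 0.0375), *Cdc6*, which licenses replication origins, by 0.91 (adjusted p = 0.0181), and *Ccnb1*, a mitotic cyclin, by 0.68 (adjusted p = 0.0121). *Mki67* had 87787, 67209 and 54541 normalized counts in control mice, against 44003, 29520 and 36837 in *MxCDX2* mice, without overlap. *Ccne1* passed in 6, *Ccnb1* in 5, *Cdc6* in 2 and *Mki67* in 1 of the 6 fits with 1 mouse left out. The number of falls in the list was 2 without control mouse 1 or 2, 15 without the wild-type control, and 4, 2 and 1 without *MxCDX2* mouse 1, 2 and 3. Calls over all genes, in either direction, also varied between these fits. They numbered 2381 of 16496, 2485 of 16275 and 4361 of 16179 without control mouse 1, 2 and 3. Without *MxCDX2* mouse 1, 2 and 3 they numbered 2394 of 16501, 2052 of 16424 and 1482 of 16302. Beside the falls of the cell cycle genes, all 12 erythroid marker genes fell, and their part in the falls of the cell cycle genes was not tested.

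The other lists hold genes of factors that share targets with p53, and some genes stand on more than 1 list. The FoxO factors control *Sesn3*, *Ccng2* and *Btg1* among others, and of their 17 listed targets 2 fell and 15 did not pass (11.8% called), with a median of -0.13. *Cat*, which encodes catalase, fell by 1.31 (adjusted p = 0.00196) and *Irs2*, an adaptor of the insulin receptor, by 0.65 (adjusted p = 0.0228). Of 20 genes of the ATF4 stress response, to which *Sesn2* also responds, 3 rose, 5 fell and 12 did not pass (40.0% called), with a median of -0.36. *Atf3* rose by 1.70 (adjusted p = 0.00253), *Nupr1* by 1.41 (adjusted p = 0.00796) and *Psat1*, an enzyme of serine synthesis, by 0.81 (adjusted p = 0.00358). *Ppp1r15a*, also known as *Gadd34*, which restarts translation after stress, fell by 2.91 (adjusted p = 0.00477), and so did *Chac1* (-1.49), *Asns*, the asparagine synthetase (-1.32), and *Slc7a5*, an amino acid transporter (-1.18), with adjusted p-values of 0.0164, 0.00161 and 0.00196. With 1 mouse left out, *Irs2* passed in 3 and *Chac1* in 2 of the 6 fits, whereas *Cat*, *Atf3*, *Nupr1*, *Psat1*, *Ppp1r15a*, *Asns* and *Slc7a5* passed in all 6. *Atf4* itself had a log2 fold change of -0.34 (adjusted p = 0.243). Of 20 early response genes, which *Btg2* resembles in its quick induction by growth factors, 2 rose (*Atf3* and *Jun*, the latter by 1.22, adjusted p = 0.00651), 1 fell (*Jund*, by 0.84, adjusted p = 0.0118) and 17 did not pass (15.0% called), with a median of -0.24. *Jun* passed in all 6 and *Jund* in 5 of those fits. *Myc* was among the genes that did not pass, at 0.27 (adjusted p = 0.317).

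**Figure D5:**
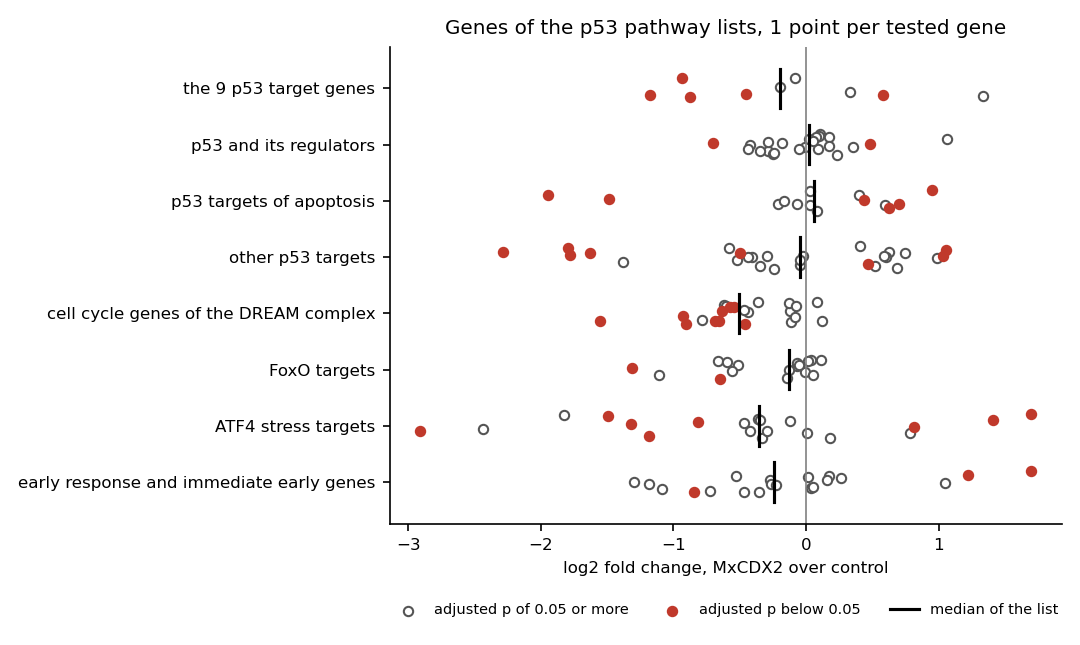
Log2 fold change, *MxCDX2* over control mice (horizontal axis), of every tested gene of the 9 p53 targets and of 7 further lists, with filled points for an adjusted p below 0.05 and a bar at the median of each list. The p53 target lists have called genes on both sides of 0, and the cell cycle genes of the DREAM complex lie mostly below it, with a median of -0.50.

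The genes whose log2 normalized counts followed those of *Cdkn1a* most closely over the 6 mice, among 11981 genes whose mean was 100 normalized counts or more, were *Git2* (Pearson's r = 0.997), *Xiap* (0.996) and *Ap1s2* (0.996). Each was lowest in the wild-type control and highest in *MxCDX2* mouse 3, as *Cdkn1a* was. *Ap1s2* had 3462, 3915 and 2412 normalized counts in control mice, against 4916, 4688 and 5038 in *MxCDX2* mice, a much narrower range than that of *Cdkn1a*. For *Mdm2* they were *Map4k1* (0.983), *Aplnr* (0.954) and *Dock9* (0.949), all highest in the *Mx1Cre* control. These values are descriptions of 6 mice in 2 groups, picked as the highest of many.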

How the data were processed

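The authors sequenced stranded mRNA libraries of total RNA from bone marrow, aligned reads to GRCm38 with STAR (version 2.5) and deposited raw counts per gene and mouse from HTSeq (version 0.6.1), as listed in the submitters' processing notes, which also name bcl2fastq (version 2.17.1.14). The strand setting of the counting is not given in the sources used here. Rows that name no gene were left out. Reads with no feature were 9.22 to 14.1% and ambiguous reads 2.99 to 3.16% of each library. Symbols, positions and exon lengths came from GENCODE M21, which held 37693 of the 39179 identifiers.

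Tests used edgeR 4.0.16 in R 4.3.3 (TMM, filterByExpr, glmQLFit, glmQLFTest), over 15980 of the 25488 genes with at least 1 count, with Benjamini-Hochberg adjustment. Standard errors and 95% intervals were derived from the quasi-likelihood F statistic and its degrees of freedom. DESeq2 1.42.0, a later version of the tool of the study, and limma voom 3.58.1 were alternatives, with other scalings and filters, a threshold of 0.01 and each mouse left out. On simulated data for the 3 against 3 comparison (15729 genes), edgeR recovered 25 of 100 genes changed by a log2 fold change of 1 and 83 of 100 changed by 2, with 9 false calls, limma voom 24 and 83, with 9 false calls, and DESeq2 (15980 genes) 60 and 93, with 83 false calls. The changed genes were a far smaller share of the simulated data than the 21.7% of genes called in the real data. Adjusted p-values depend on that share, so these counts do not measure recovery in the real data. In a check for duplicate libraries, no pair of mice of 1 group agreed within sampling noise. The labels name separate mice as replicates.

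The genes and lists were chosen with earlier results of these data known. Named were all 9 genes and their tested relatives, *Trp53*, *Mdm4* and *Cdkn2a*, and of each other pathway list the 4 largest changes per direction at a mean of 50 or more normalized counts, with *Bax*, *Bbc3*, *Pmaip1*, *Gadd45a*, *Myc* and *Atf4* beside them, at most the 2 most abundant genes of a marker list, and the 3 genes most alike *Cdkn1a* and *Mdm2* by Pearson's r. Python 3.11.15 with pandas 2.3.3, scipy 1.17.1, numpy 2.4.6 and matplotlib 3.10.9 gave tables and figures.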

Additional observations from a re-analysis of the deposited data

How the results depend on the processing

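*Sesn1* kept its fall and *Zmat3* stayed short of the threshold under all 14 alternatives. Scaling by total counts only moved the median log2 fold change of all genes from 0.00 to 0.12. It turned *Mdm2* to 0.037, took *Cdkn1a* past the threshold (1.47, adjusted p = 0.0493) and *Sesn2* out of it (-0.33, adjusted p = 0.0942), so that 2 of the 9 genes were called higher, while calls over all genes went from 3471 to 4000. DESeq2 also called 2 higher, with *Cdkn1a* at 1.33 (adjusted p = 0.0178), and 4607 genes in all. *Sesn2* lost its call with DESeq2's size factors in edgeR (-0.46, adjusted p = 0.0501) and with every gene of at least 1 count (-0.42, adjusted p = 0.106). At an adjusted p below 0.01, *Ccng1* (0.58), *Sesn2* (-0.45), *Btg2* (-1.18) and *Trp53inp1* (-0.93) lost their calls. This left 1 of the 9 lower and 0 higher with edgeR, against 2 lower and 0 higher with limma voom and 3 lower and 1 higher with DESeq2. At an unadjusted p below 0.05, edgeR had 2 higher and 4 lower. The adjusted threshold of 0.01 left 1282 genes called over the whole table, 1043 of them with an absolute log2 fold change above 1. Among the genes of the other lists it left 6 higher and 10 lower. The cause of these changes, beyond the stricter threshold itself, was not tested.

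With each mouse left out in turn, the calls over all genes ranged from 1482 (without *MxCDX2* mouse 3) to 4361 (without the wild-type control), and from 1205 to 2406 with the fold threshold. Without *MxCDX2* mouse 2 they numbered 2052. Among the 9 genes, 0 to 2 were called higher and 1 to 4 lower. The lower count was 2 without control mouse 1, *MxCDX2* mouse 1 or *MxCDX2* mouse 2. At an unadjusted p below 0.05, 1 to 3 of the 9 were higher, and 4 were lower in each of these fits. Among the 155 other list genes, not all of which were tested, 6 to 17 were higher and 12 to 41 lower. With all mice 13 were higher and 27 lower, in a fit that called 3471 of 15980 genes. Log2 fold changes ranged from 0.97 to 1.76 for *Cdkn1a*, 0.53 to 0.66 for *Ccng1*, -1.40 to -1.001 for *Btg2*, -0.52 to -0.37 for *Sesn2*, -1.09 to -0.73 for *Trp53inp1* and -0.43 to 0.063 for *Phlda3*, which was 0.063 without the wild-type control. The smallest count of any of the 9 genes in any mouse was 111. No paired analysis was possible because the labels number the *MxCDX2* mice but not the control mice.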
